A study of Homo sapiens with 6 samples.

Results

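The genes described here are the insulin receptor substrates IRS1 and IRS2, the PI3K subunits PIK3CA and PIK3R1, the kinases AKT1 and AKT2, the transcription factors FOXO1 and FOXO3, and the mTOR subunit MLST8, measured in ES-2 cells given a mir-22 mimic. They were taken by symbol from the annotation of the array, and every probe so named was used. Of the 9 genes, 8 had a named probe, out of 18852 genes named on it, with 18 of its 48803 probes. PIK3CA, the catalytic subunit, had no probe named here and was not analysed. ES-2 is an established human line from an ovarian clear cell carcinoma. One group was transfected with the mir-22 mimic at 65 nM and the other with a control mimic whose sequence derives from microRNAs of the worm C. elegans and for which no dose is given in the sources used here. RNA was taken after 48 hours, with 3 arrays per group that the labels call biological replicates without naming separate cultures or days. The p-values therefore measure the spread between these arrays, in 1 cell line.

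Insulin and insulin-like growth factors act on receptor tyrosine kinases, which phosphorylate the docking proteins IRS1 and IRS2. Phosphorylated docking proteins bind the regulatory subunit of PI3K, and the lipid that PI3K makes brings AKT to the membrane, where an mTOR-containing complex completes its activation. Active AKT phosphorylates FOXO proteins, which then leave the nucleus, so that transcription of their targets falls when the pathway is on. These steps are set largely by phosphorylation, whereas the arrays measured transcript levels.

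The mimic copies mir-22, whose human arms are shown because the treatment consists of this sequence. The labels do not say which arm the mimic carries as its active strand. Both arms lie on the minus strand of chromosome 17 and are RefSeq's, on GRCh38.p14. Capitals mark the seed, bases 2 to 8, with which a microRNA chiefly recognises its targets.
hsa-miR-22-3p (chr17:1713914-1713935): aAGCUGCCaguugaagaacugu
hsa-miR-22-5p (chr17:1713952-1713973): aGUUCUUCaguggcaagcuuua
A transcript paired along the seed of the first arm would hold GGCAGCU. No other arm among the 2545 human mature microRNAs of that table had either seed. Transcript sequences were not searched for target sites here. No probe for the mir-22 host transcript was named here, so the raised mir-22 could not be checked on these arrays.

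Each array detected between 17465 and 19244 probes at a detection p under 0.01. Control mimic replicate 3 stood apart: its log2 values correlated at 0.980 and 0.981 with the other controls, which correlated at 0.997 with each other, and it alone made up 1 end of principal component 1 (60.1% of the variance). The calls of the 8 genes are therefore also given without it. Of the markers fixed for the line, the keratin genes KRT7, KRT8 and KRT18, vimentin (VIM), ARID1A and WT1 were kept by the detection filter and none was called. NAPSA, PAX8, EPCAM, CDH1 and ESR1 were not kept. Of 7 markers of blood, vessel, liver and muscle cells, 5 were not kept, and CD68 and PECAM1 were kept and not called.

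IRS1 fell and FOXO3 rose with the mir-22 mimic, by 1.68-fold for IRS1 and by 1.70-fold and 1.58-fold for the 2 FOXO3 probes, and smaller changes passed the test in MLST8 (lower) and PIK3R1 (higher). IRS2, AKT1, AKT2 and FOXO1 did not pass. Of the 18 probes, 11 were detected on at least 3 of the 6 arrays and were tested, at least 1 for each of the 8 genes. Of these, 5 passed an adjusted p of 0.05 (limma, adjusted over 18732 probes), 3 higher and 2 lower, standing for 4 genes. Over all tested probes 6.46% passed, 3.04% higher and 3.42% lower. Mimic and control arrays were fully apart for 7 of the 11 probes, against 31.3% of all tested probes. The genes were proposed with results of these data in view, so these shares describe them and are no test of the pathway. In RNA from whole cultures, less transcript per cell and fewer cells that express a gene cannot be told apart.

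**Figure D1:**
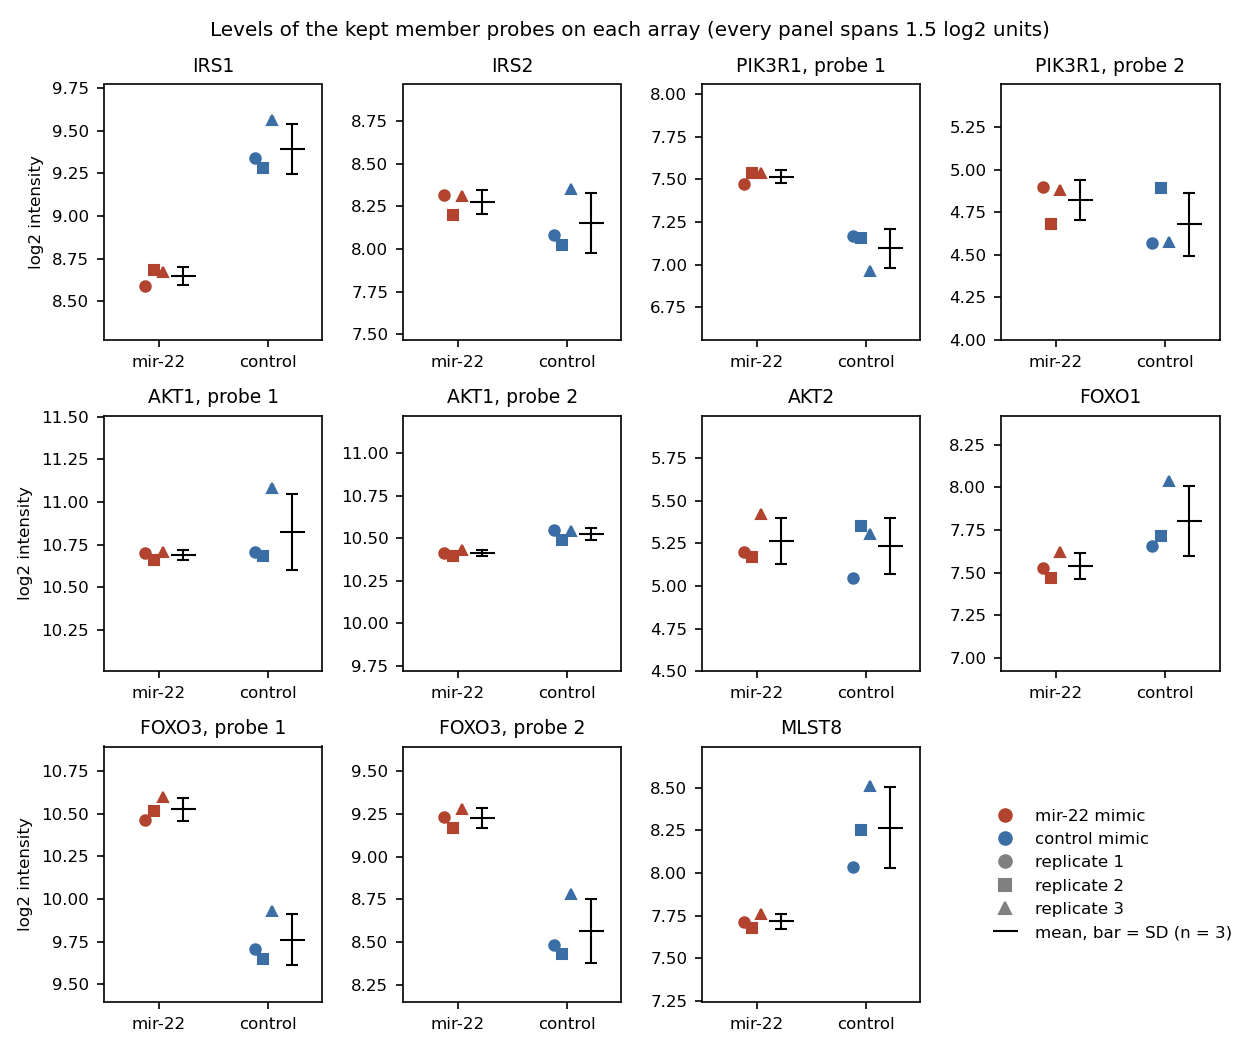
Normalised log2 intensity (vertical axis) of the 11 tested probes of the 8 genes on each array, with mir-22 mimic arrays in red at the left and control mimic arrays in blue at the right of each panel. Black bars give the mean and SD of 3 arrays. The groups stand clear of each other for IRS1, both FOXO3 probes, MLST8 and PIK3R1 probe 1, and narrowly for FOXO1 and AKT1 probe 2.

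Among the docking proteins, IRS1 carries the insulin and growth factor signal from the receptor to PI3K. Its probe ILMN_1759232 had log2 intensities of 8.59, 8.68 and 8.67 on mir-22 mimic replicates 1, 2 and 3, against 9.34, 9.28 and 9.56 on control mimic replicates 1, 2 and 3. Every mimic array lay at least 0.60 below every control array. On the raw scale the probe read 386 to 488 intensity units with the mimic and 648 to 674 with the control. The log2 fold change of IRS1 was -0.75 ± 0.11, a 1.68-fold decrease, where ± is here and below the moderated SE with 3 arrays in each group (adjusted p = 0.00941, limma). Without control mimic replicate 3 the value was -0.66 (adjusted p = 0.00179). The call was lost without mir-22 mimic replicate 1 (-0.72, adjusted p = 0.0707), 2 (-0.76, 0.0618) or 3 (-0.76, 0.0518). In 15 alternatives the adjusted p lay between 0.000212 and 0.0707. A second IRS1 probe, ILMN_1883348, was not above background on any array.

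IRS2, the other docking protein, is itself a known target of FOXO factors. Its single probe, ILMN_2083469, had log2 intensities of 8.32, 8.20 and 8.31 with the mir-22 mimic, against 8.08, 8.02 and 8.35 with the control. The mimic arrays lay above control replicates 1 and 2 and below control replicate 3, so the groups overlapped. The log2 fold change was 0.12 ± 0.12 (adjusted p = 0.565, limma), with a 95% interval of -0.14 to 0.39. Without control mimic replicate 3 it was 0.22 (adjusted p = 0.126). IRS2 passed in none of 15 alternatives.

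The change of IRS1 was set against that of IRS2 within each array, as the difference of their log2 values. That difference averaged 0.37 ± 0.11 on mir-22 mimic arrays and 1.24 ± 0.03 on control arrays (SD, n = 3 each), so it was 0.87 lower with the mimic (-0.869). An exact two-sided permutation test gave p = 0.1, the smallest value that 3 against 3 arrays allow (0.15 adjusted over 3 such pairs). All mimic arrays lay below all control arrays in this difference, and without control mimic replicate 3 it was -0.886. Probes differ in brightness, so only the change of this difference carries meaning, not its level.

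PIK3R1 encodes the regulatory subunit that binds the docking proteins and holds the catalytic subunit in check. Its brightest probe, ILMN_1760303, had log2 intensities of 7.47, 7.54 and 7.54 with the mir-22 mimic, against 7.17, 7.16 and 6.96 with the control. The groups did not overlap, and all mimic arrays were at least 0.30 above all control arrays. The log2 fold change was 0.42 ± 0.10, or 1.34-fold (adjusted p = 0.0471, limma). This call was close to the threshold. Blocking on replicate number gave an adjusted p of 0.0530, median scaling one of 0.104 and a robust fit with a variance trend one of 0.0510. The call was kept without control mimic replicate 3 (0.35, adjusted p = 0.0236) and lost without mir-22 mimic replicate 1 (0.44, 0.158), 2 (0.41, 0.191) or 3 (0.41, 0.149), and likewise without replicate 1 (0.46, 0.0834) or 2 (0.45, 0.102) of the control. Over beads of 1 array the standard error of this probe reached 10.5% of its intensity, the highest among the 18 probes.

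PIK3R1 makes several isoforms, and the array holds 5 probes named for it. Probe ILMN_2398235 was barely above background, detected on 2 of 3 mir-22 mimic arrays and 1 of 3 control arrays, and did not pass (log2 0.14 ± 0.12, adjusted p = 0.538, limma). The other 3 probes were not above background on any array. The rise in PIK3R1 therefore rests on 1 probe.

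The kinases AKT1 and AKT2 are the effectors through which PI3K reaches metabolism, growth and survival. The brighter AKT1 probe, ILMN_2388507, had log2 intensities of 10.70, 10.66 and 10.71 with the mir-22 mimic, against 10.71, 10.68 and 11.08 with the control. Control mimic replicate 3 alone was high, by 0.39 over the mean of the other controls, and the remaining arrays lay between 10.66 and 10.71. The log2 fold change of -0.13 ± 0.13 (adjusted p = 0.565, limma) shrank to -0.0047 without that array. The second AKT1 probe, ILMN_2410909, read 10.41, 10.40 and 10.43 with the mimic, against 10.55, 10.49 and 10.54 with the control. Here the groups did not overlap, but the log2 fold change of -0.11 ± 0.09 did not pass (adjusted p = 0.485). Its 95% interval ran from -0.32 to 0.09. With median scaling the signs of both probes turned, to values just above 0 (0.0038 and 0.0157), but that scaling raised the median of all tested probes by 0.101, and relative to this shift they were at -0.10 and -0.09. The remaining AKT1 probe was detected on 1 mimic array and no control array and was not tested.

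AKT2 is the isoform most tied to insulin-driven glucose uptake. Its probe, ILMN_1743347, lay near background, at 5.20, 5.17 and 5.42 with the mir-22 mimic, against 5.05, 5.35 and 5.30 with the control. The groups overlapped, and the log2 fold change was 0.03 ± 0.12 (adjusted p = 0.906, limma), with a 95% interval of -0.25 to 0.31. Low signals are compressed by the normalisation, so any change of this dim probe would be understated, and none was seen here. The within-array difference of AKT1 and AKT2 was 0.165 lower with the mimic (-0.165, exact permutation p = 0.3, two-sided), and without control mimic replicate 3 it was -0.071.

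The FOXO factors are the nuclear end of the pathway, where AKT holds them back. FOXO3 had 2 bright probes, and both rose. ILMN_1681703 had log2 intensities of 10.46, 10.52 and 10.60 with the mir-22 mimic, against 9.71, 9.65 and 9.93 with the control. ILMN_1844692 read 9.23, 9.17 and 9.28 with the mimic, against 8.49, 8.43 and 8.78 with the control. On both, every mimic array stood above every control array, with gaps of 0.53 and 0.39, and control mimic replicate 3 was the highest control. The log2 fold changes were 0.76 ± 0.11, or 1.70-fold (adjusted p = 0.00940, limma), and 0.66 ± 0.12, or 1.58-fold (adjusted p = 0.0186). The other 2 FOXO3 probes were not above background on any array. FOXO3 has a near-identical copy in the genome, FOXO3B, and which copy the probes read was not tested.

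Without control mimic replicate 3 the FOXO3 values were larger, at 0.85 (adjusted p = 0.000723, limma) and 0.77 (adjusted p = 0.00100). The call of ILMN_1681703 was lost without mir-22 mimic replicate 1 (0.79, adjusted p = 0.0575), 2 (0.77, 0.0635) or 3 (0.73, 0.0553). That of ILMN_1844692 was lost without mir-22 mimic replicate 1 (0.66, 0.0981), 2 (0.69, 0.0889) or 3 (0.64, 0.0841), and likewise without replicate 1 (0.62, 0.0589) or 2 (0.59, 0.0696) of the control. Adjusted p-values ranged from 6.21e-05 to 0.0635 for the first and from 0.000121 to 0.0981 for the second over 15 alternatives each.

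FOXO1, which controls many of the same targets and is best known from liver, pancreas and fat, lay on the other side of 0. Its probe, ILMN_1738816, had log2 intensities of 7.53, 7.47 and 7.62 with the mir-22 mimic, against 7.66, 7.72 and 8.04 with the control. The groups were apart by only 0.04, and control mimic replicate 3 was again the highest. The log2 fold change of -0.27 ± 0.12 did not pass (adjusted p = 0.247, limma), and without that array it was -0.15 (adjusted p = 0.311). Within arrays, FOXO3 minus FOXO1 averaged 2.99 ± 0.06 with the mimic and 1.96 ± 0.08 with the control (SD, n = 3 each). This difference was 1.03 higher with the mimic, without overlap (exact permutation p = 0.1, two-sided, the smallest possible; 0.15 adjusted over 3 pairs), and 0.996 higher without control mimic replicate 3.

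MLST8 is a small subunit shared by both mTOR complexes, the one that drives protein synthesis and the one that phosphorylates AKT. Its probe, ILMN_1789240, had log2 intensities of 7.71, 7.68 and 7.76 with the mir-22 mimic, against 8.04, 8.25 and 8.51 with the control. The groups did not overlap, and the control arrays spread more widely than the mimic arrays (SD 0.24, against 0.04 with the mimic, n = 3 each). The log2 fold change was -0.55 ± 0.13, a 1.46-fold decrease (adjusted p = 0.0463, limma). Without control mimic replicate 3 it was -0.43 (adjusted p = 0.0187). The call was lost without mir-22 mimic replicate 1 (-0.55, 0.171), 2 (-0.53, 0.182) or 3 (-0.57, 0.133), without control mimic replicate 2 (-0.56, 0.111), with median scaling (-0.41, 0.119) and with no detection filter (adjusted p = 0.0893).

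**Figure D2:**
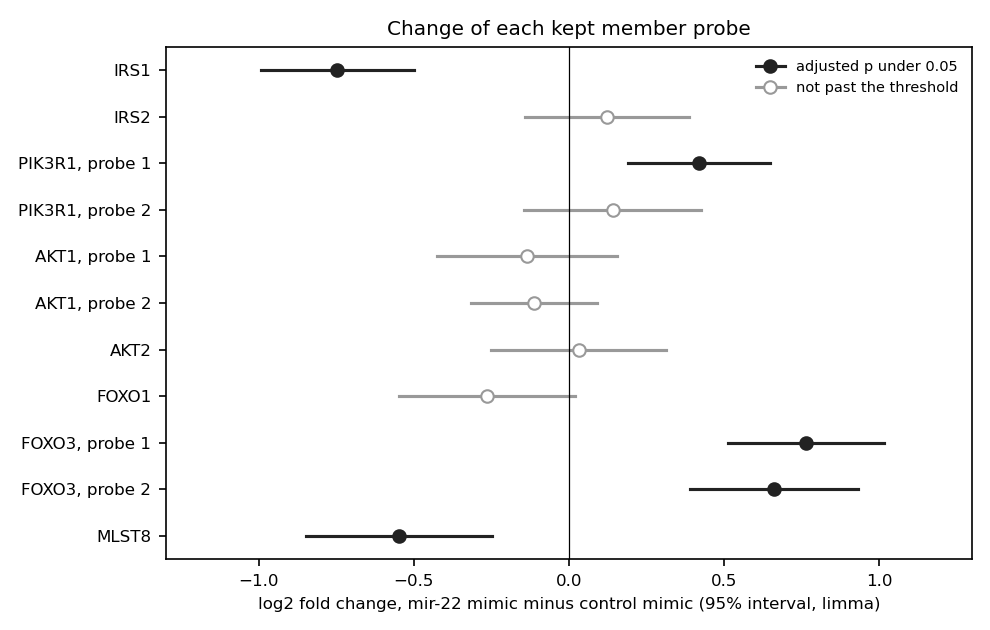
Log2 fold change of each tested probe, mir-22 mimic minus control mimic (horizontal axis), with limma's moderated 95% interval. Filled points passed an adjusted p of 0.05. IRS1 and MLST8 lie left of 0 and PIK3R1 probe 1 and both FOXO3 probes right of it, while the intervals of the other 6 probes include 0.

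By size of log2 fold change, IRS1 stood 140th among the 9879 tested probes that were lower, and the brighter FOXO3 probe 239th among the 8853 that were higher.

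The genes most like the 3 called genes of lowest p were taken by Pearson's r of log2 values over the 6 arrays, among 11125 other genes. FOXO3 ran closest to SELENOS, which helps clear misfolded proteins from the endoplasmic reticulum, RBMS1, an RNA-binding protein, and STAT3, a cytokine-activated transcription factor (r = 0.999 each). IRS1 ran closest to FOSL1, a subunit of AP-1, FBXO46 and C22orf39 (r = 0.999, 0.999 and 0.998). MLST8 ran closest to RPS6KA1, a kinase downstream of ERK, TRAPPC9 and ST3GAL3, a sialyltransferase (r = 0.999, 0.998 and 0.998). Each of these genes kept an r of at least 0.995 without control mimic replicate 3. With 6 points that share arrays and mostly fall into 2 groups, high values are common: 296, 549 and 567 genes had r over 0.95 with FOXO3, IRS1 and MLST8.

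Around these genes, 5 lists of the wider pathway held 116 genes, of which 89 were tested, each by its brightest kept probe. Of these, 8 passed higher and 4 lower (13.5%), beside 7.61% of all 11133 tested genes (3.47% higher and 4.14% lower). The median log2 fold change of the 89 was -0.05, against -0.02 over all tested genes. These are descriptions of the lists, with no test of a list. Of the called genes, IGFBP1 and RRAGD passed the detection filter only through the group where they were higher. Their adjusted p-values are therefore given as description only. IGFBP1 was still counted among the 8 and RRAGD among the 4, here and in the counts by list. Without control mimic replicate 3 the count of 12 was 21, without the other controls it was 5 or 7, and without any 1 mir-22 mimic array it was 1 or 2. FBXO32 alone was called whichever array was left out.

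Among receptors and adaptors, 1 of 15 tested genes passed (6.67%, beside 7.61% of all tested genes). GRB10, an adaptor that binds the insulin receptor and dampens its signal, rose by a log2 of 0.70 ± 0.10 (adjusted p = 0.00972, limma), and its other kept probe rose too (0.73). IGF1R, the growth factor receptor that feeds IRS1, was at 0.14 ± 0.17 and did not pass (adjusted p = 0.656), and INSR, the insulin receptor, was detected on 1 control array and not tested. The median of the 15 was -0.05. The call of GRB10 was lost without any 1 mir-22 mimic array, at log2 values that lay between 0.64 and 0.75 whichever array was left out, and it was 0.75 without control mimic replicate 3 (adjusted p = 0.00142, limma).

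Among other PI3K subunits and lipid phosphatases, 1 of 9 tested genes passed, PIK3CD, a catalytic subunit best known from white blood cells, which fell by 0.53 on the log2 scale (-0.53 ± 0.10, adjusted p = 0.0206, limma). PIK3CB, the catalytic subunit found in most tissues, was at -0.01 ± 0.11 (adjusted p = 0.975). The share called was 11.1%, beside 7.61% of all tested genes, and the median of the 9 was -0.06. Among regulators and substrates of AKT, 1 of 18 passed, SGK1, a kinase related to AKT that also phosphorylates FOXO3 (0.49 ± 0.10, adjusted p = 0.0264). PDPK1, which phosphorylates AKT at the membrane, was at 0.19 ± 0.12 (adjusted p = 0.360). The share called was 5.56%, beside the same 7.61%, and the median of the 18 was -0.08. PIK3CD and SGK1 kept their calls when control mimic replicate 3 was left out and lost them when any of the other 5 arrays was, with log2 values of -0.57 to -0.48 and 0.46 to 0.55. PIK3CD also lost its call with median scaling (-0.40, adjusted p = 0.122).

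Among mTOR complexes and their regulators, 1 of 22 tested genes passed higher and 2 lower (13.6% in all, beside 7.61% of all tested genes). LAMTOR3, part of the scaffold that places mTOR on lysosomes, rose by 1.29 ± 0.17, or 2.44-fold (adjusted p = 0.00763, limma). It read 9.29, 9.15 and 8.94 on the mimic arrays, against 8.09, 7.96 and 7.47 on the control arrays. ULK1, an autophagy kinase that mTOR inhibits, changed by -0.52 ± 0.12 (adjusted p = 0.0395), and its other kept probe was called lower too (-0.50). RRAGD, a GTPase of the same lysosomal platform, was above background on 3 control arrays and on no mir-22 mimic array. Its log2 fold change was -0.48 ± 0.11 (adjusted p = 0.0364, limma), and it was kept only through the control arrays. With mimic values raised to at least the lowest detected signal of their array, it was 1.19-fold lower. The log2 fold change was -0.26 with no background correction, -0.21 with an offset of 50 and -0.29 with the authors' deposited table.

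The kinase MTOR itself was at -0.01 ± 0.12 (adjusted p = 0.967, limma) and its partner RPTOR at -0.20 ± 0.14 (adjusted p = 0.416). RICTOR, the partner in the complex that phosphorylates AKT, was detected on 1 mimic array, and DEPTOR, an mTOR inhibitor, on no array, so neither was tested. Of the tumour suppressor pair that restrains mTOR, TSC2 was at -0.08 ± 0.15 (adjusted p = 0.785). Probes of TSC1 disagreed: the brightest was at 0.21 ± 0.11 (adjusted p = 0.308), another was at 0.31 and not called, and the remaining one was called lower (-0.55, adjusted p = 0.0463, and -0.44, 0.0240 without control mimic replicate 3). Leaving out 1 array ended the call of LAMTOR3 without mir-22 mimic replicate 1 or 2, of ULK1 without any mimic array or control mimic replicate 2, and of RRAGD without any array but control mimic replicate 3. Over the 6 ways of leaving out an array the log2 values lay between 1.10 and 1.41 for LAMTOR3 and between -0.60 and -0.42 for ULK1, with the 1.10 and the -0.42 coming from leaving out control mimic replicate 3. ULK1 also lost its call with median scaling (-0.37, adjusted p = 0.134) and with no detection filter (0.0615). RRAGD also lost its call with no background correction (adjusted p = 0.0696), an offset of 50 (0.0953), median scaling (0.0596) and the authors' deposited table of intensities (0.0698).

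FOXO partners and targets had 5 of 25 tested genes called higher, IGFBP1 among them, and 1 lower, with a median of 0.07. In all 24% were called, beside 7.61% of all tested genes (3.47% higher and 4.14% lower). The list mixes partners with targets, and its share was not tested. FBXO32, the muscle-wasting ubiquitin ligase atrogin, is a textbook FOXO3 target, and it fell. Its brightest probe had log2 intensities of 8.80, 8.90 and 8.87 with the mir-22 mimic, against 9.82, 9.90 and 10.22 with the control. The change was -1.12 ± 0.12 (adjusted p = 0.00402, limma), a second probe was called at -0.94, and another, near background, was at -0.05. FBXO32 therefore changed opposite in sign to FOXO3. The cell cycle inhibitor CDKN1A, another known FOXO target, named after its value was seen, was at -0.58 with groups apart and just missed the threshold (adjusted p = 0.0518). With the replicate block it passed (0.0456). Because CDKN1A was named after its value was seen, these adjusted p-values are description only.

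The called rises in the list were in IGFBP1, which binds insulin-like growth factors, TXNIP, an inhibitor of thioredoxin and glucose uptake, and GADD45A, a growth arrest gene. IGFBP1 was above background on every mir-22 mimic array and on no control array, and was kept only through the mimic arrays. Its log2 fold change was 0.64 ± 0.10 (adjusted p = 0.0108, limma). With control values raised to at least the lowest detected signal of their array, it was 1.35-fold higher. The log2 fold change was 0.35 with no background correction, 0.29 with an offset of 50 and 0.38 with the authors' deposited table. TXNIP was at 0.63 ± 0.11 (adjusted p = 0.0204) and GADD45A at 0.47 ± 0.10 (adjusted p = 0.0322), with its other probe called at 0.70. The remaining called members, named after their values were seen, were the coactivator CITED2 (0.70) and the peroxide-degrading enzyme CAT (0.42), whose other probe was at 0.38 and not called. The cell cycle inhibitor CDKN1B was at 0.09 ± 0.12 (adjusted p = 0.673), with a second probe at 0.66 ± 0.31 that fell to 0.25 without control mimic replicate 3. BCL2L11, a pro-apoptotic gene, was at 0.01 ± 0.10 (adjusted p = 0.967) and FOXO4 at -0.11 ± 0.12 (adjusted p = 0.637).

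Calls of IGFBP1, TXNIP, GADD45A, CITED2 and CAT were each lost without any 1 mir-22 mimic array. Those of TXNIP, GADD45A and CAT were also lost without control mimic replicate 1, and those of GADD45A, CAT and CITED2 without control mimic replicate 2. Over the 6 ways of leaving out an array the log2 values lay at 0.57 to 0.73 for TXNIP, 0.42 to 0.51 for GADD45A, 0.55 to 0.83 for CITED2 and 0.39 to 0.46 for CAT. Those of FBXO32 lay between -1.20 and -1.003. With median scaling TXNIP (adjusted p = 0.0605), CITED2 (0.0826) and CAT (0.0541) also lost their calls, as did CITED2 with no detection filter (0.0794).

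**Figure D3:**
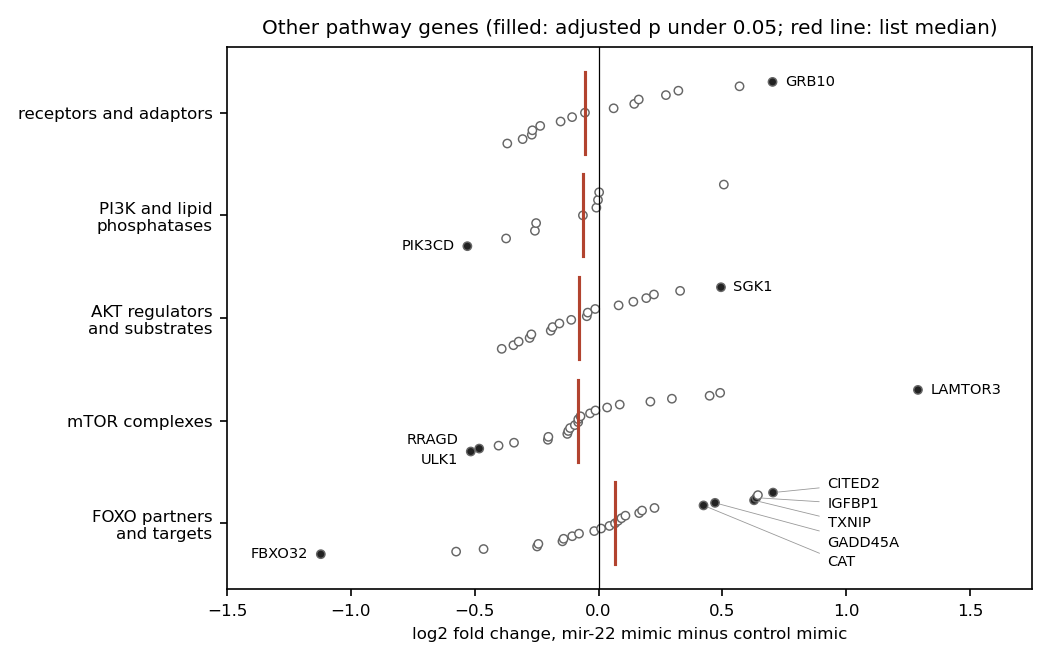
Log2 fold change, mir-22 mimic minus control mimic (horizontal axis), of the 89 other pathway genes tested, 1 point per gene, in 5 lists from receptors at the top to FOXO partners and targets at the bottom. Filled, named points passed an adjusted p of 0.05 and red lines are list medians, which lie between -0.08 and 0.07; LAMTOR3 (1.29) and FBXO32 (-1.12) lie farthest out.

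RefSeq's promoter windows (250 bases before to 50 after a gene's start, GRCh38.p14) were searched on both strands for a forkhead motif, GTAAACA, and for the insulin response motif CAAAACAA. The motifs share the letters AAACA. Of all 35116 windows, 3.42% held the first and 1.68% the second. Among the 7 of the 9 genes whose windows were searched, the first motif was in none and the second in IRS2. In the FOXO list, the called genes FBXO32, IGFBP1 and GADD45A, and also PCK1, had no window and were not searched. Of 27 genes of the FOXO list with at least 1 window, 4 held the first motif (BCL2L11, FOXO4, MXI1 and TXNIP) and none the second. These are counts of genes, over 15 windows for the 7 genes and 41 for the FOXO list. They are therefore not comparable with the shares of all windows. The windows of IRS2, the one match among those 7 genes, and of TXNIP, the one match that was also called (1 of its 2 windows), are shown with the matched letters in capitals. They lie on the minus strands of chromosomes 13 and 1.
IRS2 (chr13:109786534-109786833): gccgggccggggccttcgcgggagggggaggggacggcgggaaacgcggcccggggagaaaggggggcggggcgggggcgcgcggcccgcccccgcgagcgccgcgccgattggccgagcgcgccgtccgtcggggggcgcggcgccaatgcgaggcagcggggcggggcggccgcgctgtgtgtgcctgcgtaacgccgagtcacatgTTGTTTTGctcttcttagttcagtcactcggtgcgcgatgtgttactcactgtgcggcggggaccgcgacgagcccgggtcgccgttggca
TXNIP (chr1:145996530-145996829): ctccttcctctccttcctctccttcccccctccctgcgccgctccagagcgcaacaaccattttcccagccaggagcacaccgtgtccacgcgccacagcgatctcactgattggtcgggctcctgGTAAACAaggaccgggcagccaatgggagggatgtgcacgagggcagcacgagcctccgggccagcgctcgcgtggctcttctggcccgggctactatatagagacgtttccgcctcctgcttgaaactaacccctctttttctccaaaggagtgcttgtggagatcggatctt
A match is a description of these letters only. IRS2 held a match and did not pass the test (0.12), TXNIP held one and rose (0.63), and BCL2L11 and FOXO4 held one and did not pass (0.01 and -0.11). MXI1 held a match in more than 1 window and was not among the called genes.

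**Figure D4:**
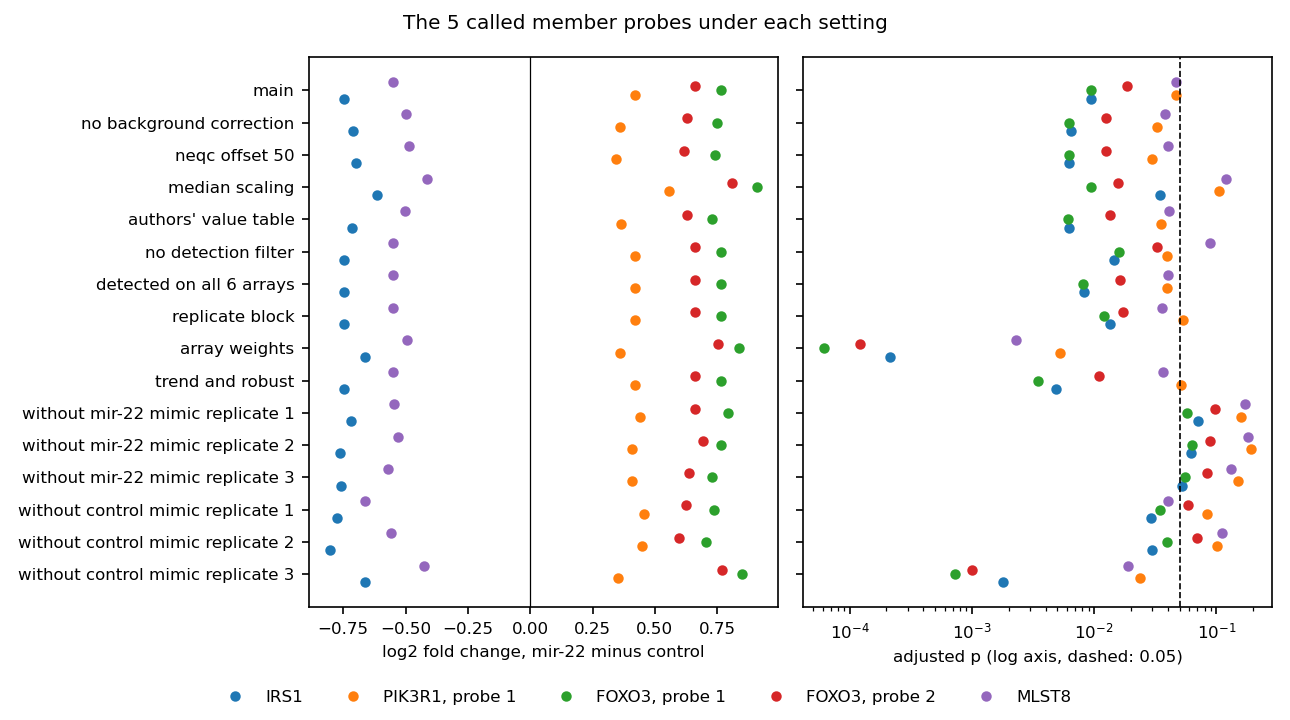
The 5 called probes under the reported processing and 15 alternatives (rows). The left panel gives the log2 fold change, mir-22 mimic minus control mimic, and the right panel the adjusted p on a log axis with 0.05 dashed. Every probe keeps its sign in every row, and all 5 lie right of the dashed line in each row that leaves out a mir-22 mimic array.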

How the data were processed

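Total RNA of ES-2 cells was measured on 6 one-colour Illumina bead arrays, 3 per group. The authors summarised beads with BeadStudio, per the submitters' processing notes. Each probe has, per the file headers, a mean intensity, neither background-subtracted nor normalised, with a bead count, an SD over beads and a deposited detection score, a fraction from 0 to 1. Detection p was taken as 1 minus that fraction. A deposited table of normalised intensity names the probes, and its 48803 rows were joined to the array files by their order of values, without a tie.

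Intensities were processed in limma 3.58.1 (R 4.3.3) with neqc: normexp background from detection p, an offset of 16, quantile normalisation and log2. The log2 values were computed here from the deposited intensities. Probes with detection p under 0.01 on at least 3 of 6 arrays were kept (18732). Groups were compared with lmFit and eBayes, two-sided, Benjamini-Hochberg adjusted over kept probes. The step was tested on simulated data, with noise drawn independently for each probe and array. Those data held no array-wide deviation like that of control mimic replicate 3, so the simulation does not cover it. Deviations of same-numbered arrays from their group means correlated at 0.334, 0.135 and 0.434 and those of differently numbered arrays at -0.400 to 0.315, with mir-22 mimic replicate 2 closer to control mimic replicate 1 (0.181) than to its own number. Mir-22 mimic replicate 1 correlated almost as highly with control mimic replicate 2 (0.315) as with its own number (0.334). These correlations do not settle whether the labels' replicate numbers mark pairs. The reported fit and the permutation tests took the arrays as unpaired. A fit with the number as a block was run as an alternative. Both number 3 arrays had the lowest upper-quartile raw intensity of their group (80.0 with the mimic and 78.1 with the control).

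The number of arrays limits precision: the median SE of a log2 fold change was 0.122. Named were the 9 genes, up to 4 called genes of lowest adjusted p per list, and a fixed set of pathway partners. The genes and lists were chosen with earlier results of these data known. Alternatives were other background, scaling, filter, variance and weight settings and leaving out each array.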

Additional observations from a re-analysis of the deposited data

How the results depend on the processing

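Counts of calls depended on the processing more than signs did. No called probe of the 8 genes changed sign in any alternative, nor did the brightest probe of a called gene in the 5 lists. Further probes of the listed genes and the genes of highest r are not covered by this statement. Of the member probes' values under alternatives, 139 stayed on their side of the threshold and 25 lost their call. Over all probes the count of 1210 was 628 with median scaling, 4405 with array weights, and between 134 and 2689 with 1 array left out. Median scaling moved the median log2 fold change of all kept probes by 0.101, and 73.1% of its calls were higher, against 47.0% of the 1210. Relative to that shift IRS1 was at -0.72, MLST8 at -0.51, PIK3R1 at 0.46 and FOXO3 at 0.81 and 0.71. Of the 11 tested probes of the 8 genes, 5 were called, against 3 with median scaling (PIK3R1 and MLST8 were lost), and between 0 and 5 with 1 array left out. All 3 counts of 0 came from leaving out a mir-22 mimic array (limma), when 134 to 222 probes were called in all. With the replicate block the count was 4 (PIK3R1 was lost, adjusted p = 0.0530), and the block moved no other call among these probes. It called 1577 probes in all. Of the other pathway genes 12 were called, against 8 with median scaling, 33 with array weights, 15 with the replicate block and between 1 and 21 with 1 array left out. Array weights gave control mimic replicate 3 a weight of 0.143, against 0.706 to 2.73 for the others. Signal over background limits AKT2, IGFBP1, RRAGD and the dimmer PIK3R1 probe, which lay near the detection limit.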
